A study of Mus musculus with 3 samples.

Results

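RNA of LNC cells given an antisense oligonucleotide to IL-10 was compared with RNA of untreated LNC cells, over the 12588 probe sets of the array that are not Affymetrix controls, out of 12654 in all. LNC is a malignant B-1 cell line from a lymph node of a 1-year-old New Zealand Black mouse. The cells of 1 array received the antisense oligonucleotide at 20 µM and those of the other received no oligonucleotide, with RNA taken at 24 h. An array of cells given a scrambled oligonucleotide at 20 µM is quoted as context. With the untreated array, it also sets the measure of error that differences are read against, as described below. Each group is 1 array, and the sources used here do not say whether its RNA came from 1 culture or from several pooled. There is thus no replicate check, no test was run, and every difference describes these 2 arrays.

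IL-10 is a cytokine that signals through a receptor of the Il10ra and Il10rb chains, the kinases Jak1 and Tyk2 and the transcription factor Stat3. B-1 cells are a major source of IL-10 among B cells, and malignant B-1 lines are known to use it for their own growth. STAT factors downstream of such receptors are known to induce kinases of the Pim family and genes that restrain apoptosis.

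Values are probe set intensities on a linear scale, with negative values kept. A noise floor of 595.9 was set at 2 robust standard deviations of the values below 0, values under it were raised to it, and differences are log2 intensity on the array labelled antisense minus that on the untreated array. A probe set counted as measured when it lay above the floor on at least 1 of the 2 arrays, which left 5827 and put 6761 at or below the floor on both. Each difference was read against a yardstick taken from the scrambled and untreated arrays. For the 300 probe sets nearest in level, it is the absolute difference that 95% of them stay within. The yardstick was a log2 difference of 0.90 at an intensity of 2000, 0.40 at 8000 and 0.35 at 16000. It shares the untreated array with the comparison, and it also holds any effect of the scrambled oligonucleotide. By its making, about 5% of probe sets would lie past it if the array labelled antisense differed from the untreated one as the scrambled array does.

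The share of probe sets above the floor was 42.1% on the array labelled antisense and 42.0% on the untreated array. The 6 bacterial spike-in probe sets used here, of BioB, BioC and BioDn, had a mean log2 difference of -0.63, with values between -0.79 and -0.54. Scaling to them moved the median of all measured genes from 0.01 to 0.60, so each difference holds relative to the bulk of the genes, and a list described below as lower lay below that shift rather than below 0 with such scaling. The 3-prime over 5-prime signal of 18S ribosomal RNA was 8.13 on the array labelled antisense and 1.72 on the untreated array, while it was 0.96 and 0.92 for actin and 0.93 and 1.01 for Gapdh. The part of these differences between the arrays in the results was not tested.

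The cells carried B cell transcripts on both arrays. Of 7 B cell markers on the array, 6 lay above the floor on both, with Cd74, Ms4a1, Cd79a and Pax5 well above it. Of the B-1 markers, Cd5, Spn and Cd9 lay at or below the floor on both arrays and only Il10 lay above it, so the B-1 label rests on the labels rather than on these probe sets. Of 6 T cell markers on the array, 1 lay above the floor, Cd4, at 1266 on the array labelled antisense and 1349 on the untreated array, and the CD3 chains Cd3d, Cd3e and Cd3g did not. Of 4 natural killer cell markers none lay above it. Of 2 erythroid markers 1 did, at 2233 and 1628. Of 5 granulocyte markers 2 were measured, with a summed level of 1394 and 1101. Of 6 fibroblast markers 2 were measured, with a summed level of 1485 and 1083. The macrophage markers Adgre1, Lyz2 and Marco were at or below the floor on both arrays, and the summed level of the 3 others was 2317 and 3865. Cd14 read 1088 and 2061, Csf1r -102 and 949, and Cd68 1331 and 855, so these went both ways and were dim.

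Of the measured probe sets, 162 or 2.78% were higher by 2-fold or more on the array labelled antisense, and 135 or 2.32% were lower by as much. The scrambled array, counted the same way against the untreated one, had 190 probe sets 2-fold apart, or 3.28% of 5800. Past the yardstick lay 273 higher probe sets, 4.69%, and 201 lower ones, 3.45%. Both conditions together held for 99 higher probe sets, 1.7%, and 63 lower ones, 1.08%. The threshold lay in a dense part of the distribution, with 59 higher probe sets at a log2 difference of 0.9 to 1.0 and 28 at 1.0 to 1.1, and with 56 and 29 lower ones in the same ranges. Few of the 2-fold differences were in bright probe sets. Of the 1419 probe sets with a mean intensity between 1000 and 2000, 9.65% were 2-fold apart, and of the 415 between 8000 and 16000, 0.723% were. Under a mean of 1000 the floor itself limits how far 2 values can lie apart, and 2 of 1665 probe sets passed the yardstick there. In each range of mean intensity from 1000 up, more than about 5% of probe sets lay past the yardstick, and most so among the bright ones. Between 1000 and 2000, 75 of 1419 lay past it on the higher side and 55 on the lower side. Above 16000, 38 of 364 lay past it on the higher side and 35 on the lower side.

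**Figure D1:**
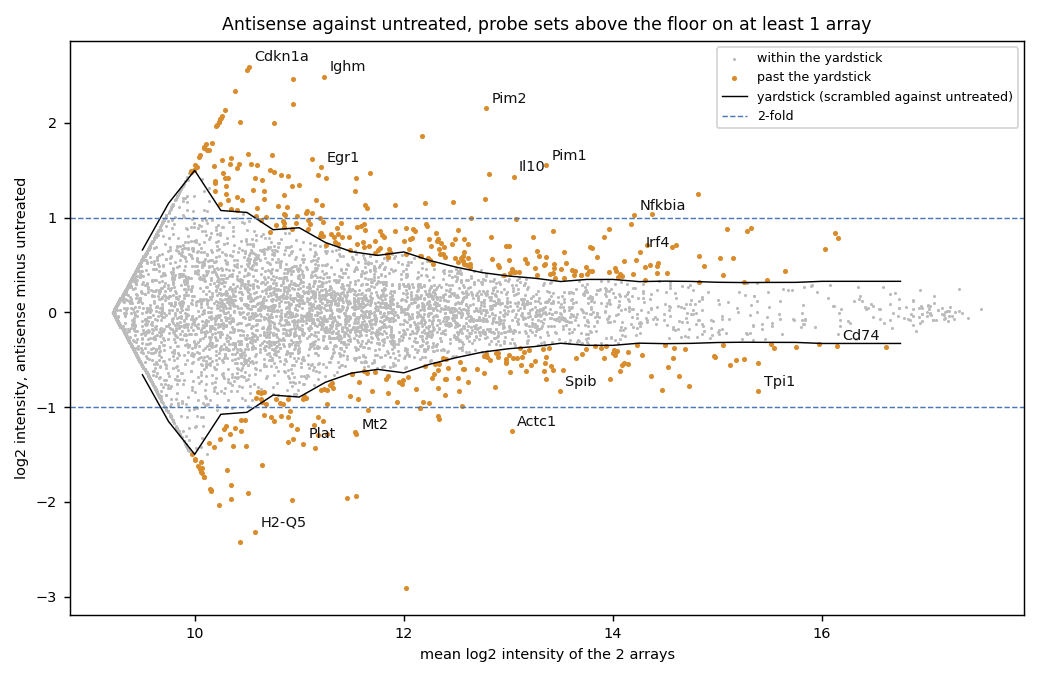
Log2 difference between the array labelled antisense and the untreated array (y) against the mean log2 intensity of both (x), 1 point per measured probe set, with the yardstick as black lines and 2-fold as dashed lines. Points past the yardstick are orange. Pim1, Pim2, Il10 and Nfkbia stand out among the brighter probe sets, and most 2-fold differences lie at low levels. The Cdkn1a point shown is its probe set that was below the floor without treatment.

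Of 4422 genes measured with a probe set of their own, each taken as its brightest probe set, 210 lay past the yardstick on the higher side, 4.75%, and 151 on the lower side, 3.41%. The median over all these genes was 0.01, and 48.6% had a difference below 0. The gene lists below are read against these shares, which depend on level. Under a mean intensity of 1000, 2 of 1665 probe sets were past the yardstick. Of 624 probe sets with 1 gene at a mean of 8000 or more, 68 were past it on the higher side and 55 on the lower side. Lists of bright genes can thus hold more genes past it, and lists of dim genes fewer, for their level alone. No shares matched for level were taken.

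RNA of Il10 itself, the target of the oligonucleotide, was not lower but higher in the treated culture. The Il10 intensity was 13946 on the array labelled antisense and 5164 on the untreated array, a log2 difference of 1.43 or 2.70-fold, against a yardstick of 0.36. No protein was measured here, and whether the oligonucleotide lowered IL-10 protein was not tested. The name used for the treated array repeats its label and makes no statement about a loss of IL-10. Of the 15 measured genes of IL-10 and JAK-STAT signalling, 2 were past the yardstick on the higher side, 1 on the lower side, and the median was -0.04. The receptor chain gene Il10rb read 4723 against 2714, a difference of 0.80, while Il10ra lay below the floor on both arrays. On the scrambled array Il10rb read 4502, close to the array labelled antisense, while Il10 read 5616, close to the untreated one. Ptpn6, the phosphatase SHP-1 that restrains cytokine and antigen receptor signals, was lower, at 15617 against 20854 or -0.42. The STAT feedback inhibitor Cish read 1348 against 792, within the yardstick of 1.51, and Socs3 was below the floor on both arrays. Stat3 differed by 0.10 in 1 probe set and -0.06 in another, Stat6 by -0.28 and Jak1 by -0.34, each within its yardstick. The kinase gene Tyk2 lay below the floor on both arrays. The measured signalling genes other than Il10, Il10rb and Ptpn6 thus lay within the yardstick.

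Pim1 and Pim2, serine/threonine kinases that STAT factors are known to induce, were the most separated bright genes of the comparison. Pim2 had an intensity of 14958 on the array labelled antisense and 3351 without treatment, or 4.46-fold, with a yardstick of 0.42 on the log2 scale. Pim1 read 17982 and 6134 in its brighter probe set, a difference of 1.55, and 4222 and 916 in the other, a difference of 2.20. Pim3, the remaining kinase of the family, went the other way within its yardstick, at 1000 against 1624. Myc, a growth regulator that Pim kinases are known to stabilise, read 5114 against 4457, a difference of 0.20 within the yardstick of 0.55. Its partner Max differed by -0.41, also within. Mxi1, an antagonist of Myc, read 156 on the array labelled antisense and 1914 on the untreated array, at least 3.21-fold lower, but the scrambled array read 353 as well.

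Several genes that restrain apoptosis were higher. Of 11 measured, 7 had a difference above 0 and 4 below 0, and 4 were past the yardstick on the higher side and none on the lower side. The median was 0.20 above that of all genes, between 0.16 and 0.25 above it under the other scalings, and 0.12 above it with only probe sets above the floor on both arrays. Bag1, a co-chaperone that binds Bcl2, read 3909 against 1275, or 3.07-fold. Bcl2l1, which encodes Bcl-xL, read 3256 against 1282, a difference of 1.34. Bcl2 itself read 4423 against 2770, a difference of 0.68 just past the yardstick of 0.62. Its 2 dimmer probe sets were above the floor on the array labelled antisense only, at 1311 and 1165. The apoptosis inhibitor Birc2 differed by 0.67, at 4676 against 2945. Mcl1 read 11255 against 11617, a difference of -0.05, and Birc5, which also serves mitosis, read 6864 against 8743, both within the yardstick. Of 18 measured genes that promote apoptosis, 1 lay past the yardstick, Bcl2l11, which encodes Bim. It read 3343 against 1721 in its brightest probe set, a difference of 0.96, and 1571 against 1774 in another.

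Genes linked to p53 and growth arrest had the highest median of the 40 lists, 0.30, with 4 of 15 measured genes past the yardstick on the higher side and none on the lower side. Cdkn1a, which encodes the CDK inhibitor p21, read 3050 against 961, or 3.17-fold. A second Cdkn1a probe set read 3595 against 324, the latter below the floor, so at least 6.03-fold higher. Ccng1, a p53-induced cyclin gene, read 2234 against 754. Mdm4, an inhibitor of p53, read 5743 against 2623, a difference of 1.13, and the stress transcription factor Ddit3 read 2559 against 1330. On the scrambled array Ddit3 read 2399, close to the array labelled antisense, while Mdm4 read 2792 and Cdkn1a 1206, close to the untreated one. Mdm2 differed by 0.34 and Btg2 by -0.50, both within the yardstick. Among 11 measured CDK inhibitors and G1/S genes none was past the yardstick. Cdkn1b, which encodes p27, read 9832 against 9814, Cdk4 read 9407 against 8818 and Ccnd2 read 11108 against 10201.

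**Figure D2:**
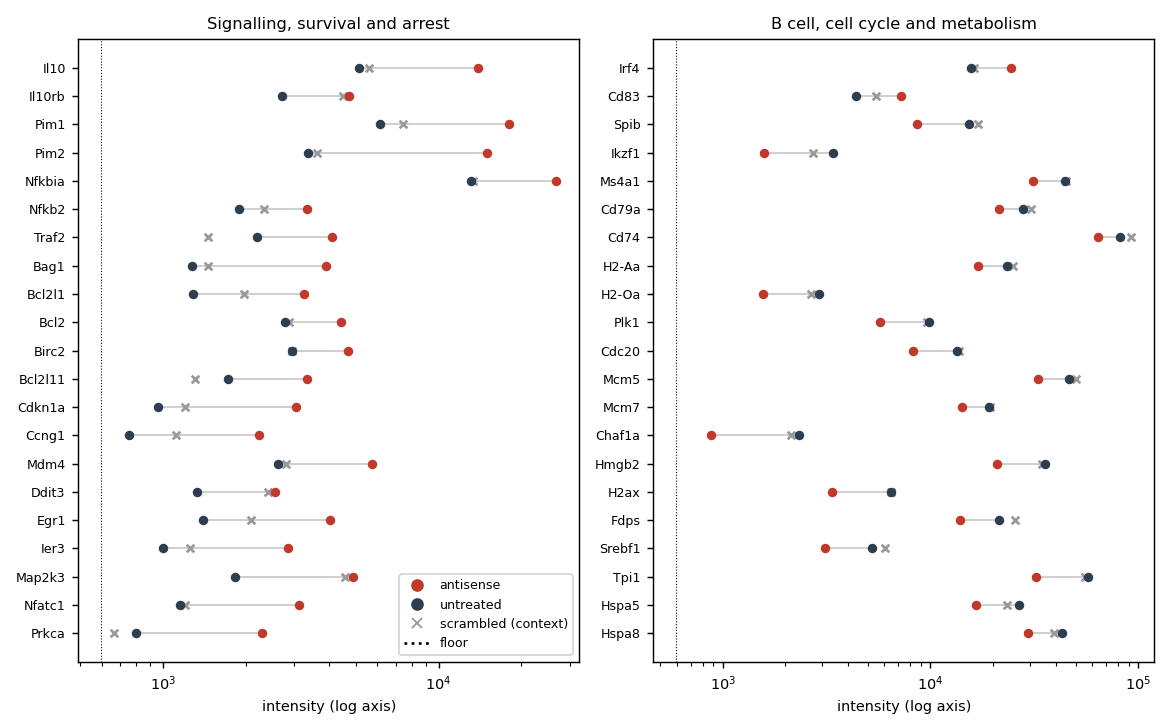
Intensity (log axis) of genes named in the text on the array labelled antisense (red), the untreated array (dark blue) and, as context, the scrambled array (grey cross), 1 value each, with the floor of 595.9 dotted. Pim1, Pim2, Bag1, Cdkn1a and Nfkbia lie to the right of both other arrays, while Il10rb, Ddit3 and Map2k3 lie next to the scrambled array.

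In the NF-kB list, 2 of 13 measured genes were past the yardstick on the higher side, Nfkbia and Nfkb2. Nfkbia encodes an inhibitor that holds NF-kB in the cytoplasm and is itself induced by NF-kB, and Nfkb2 encodes the subunit p100/p52. Nfkbia read 26784 against 13171 in 1 probe set, a difference of 1.02, and 14840 against 8188 in another, a difference of 0.86. Nfkb2 read 3344 against 1890, a difference of 0.82. Of the other 11, 3 had a difference above 0 and 8 below 0. Nfkbie, which encodes a further inhibitor, read 1971 against 1026, a difference of 0.94, and Rela and Nfkbib differed by 0.29 and 0.32, all 3 within the yardstick. Bcl3, a nuclear partner of NF-kB, read 358 against 1748, at least 2.93-fold lower and past the yardstick, with 1002 on the scrambled array. The list's median was -0.11, and it was 0.09 when only probe sets above the floor on both arrays were used. The list thus did not move together, and the promoter windows of Nfkbia and Nfkb2 are shown only because these 2 genes were past the yardstick on the higher side. They come from RefSeq on build GRCm38.p6 and run 5′ to 3′ on the strand of the gene, and for Nfkb2 the window of 1 of its 3 starts is printed. Capitals mark NF-kB-type letters, which are GGGA, 1 free letter and TTTCC, on either strand, and the free letter was chosen after the data were seen. In these windows the marked letters overlapped no match of the STAT-type or sterol-type letters. A further Nfkb2 window overlaps the printed one and holds the same marked letters, and the window of the remaining Nfkb2 start held none.
Nfkbia, chr12:55492598-55492897, minus strand: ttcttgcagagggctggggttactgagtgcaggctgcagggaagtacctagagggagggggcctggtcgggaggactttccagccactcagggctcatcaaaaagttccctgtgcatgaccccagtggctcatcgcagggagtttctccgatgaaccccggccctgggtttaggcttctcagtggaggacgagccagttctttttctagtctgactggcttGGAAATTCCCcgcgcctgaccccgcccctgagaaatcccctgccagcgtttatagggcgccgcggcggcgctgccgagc
Nfkb2, chr19:46305445-46305744, plus strand: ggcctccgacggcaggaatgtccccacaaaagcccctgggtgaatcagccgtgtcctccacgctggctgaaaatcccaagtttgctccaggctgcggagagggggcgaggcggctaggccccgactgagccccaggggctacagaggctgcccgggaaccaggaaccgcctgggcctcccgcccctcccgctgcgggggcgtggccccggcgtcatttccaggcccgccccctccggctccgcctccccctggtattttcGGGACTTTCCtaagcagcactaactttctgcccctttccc
Of the 12 measured members of the list with a window in the table, 2 held these letters, 16.7%, against 126 of 27025 genes, 0.466%. No promoter of the 34 named higher genes chosen by size and found in the table held them. The STAT-type letters TTCNNNGAA were in 3 of these 34, 8.82%, and in 2 of 29 named lower genes, 6.9%, against 9.55% of all genes, and the sterol-type letters TCACNCCAC in 1 of 11 cholesterol genes, against 1.44% of all. A match is a description of letters in a window and not a site of binding.

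Receptors and adaptors of the TNF family were measured for few genes. Of 7 above the floor, 1 was past the yardstick, Traf2, an adaptor of TNF receptors, at 4097 against 2189. Among 13 measured cytokine genes, 1 lay past it on each side. Tgfb1, which encodes a cytokine that restrains lymphocyte growth, read 2812 against 5405, a difference of -0.94, and the erythropoietin gene Epo read 3094 against 1225, a difference of 1.34. Tnf read 1575 against 886, within the yardstick, and Ltb, which encodes lymphotoxin beta, read 16609 against 14481. Of 19 measured receptors of cytokines and chemokines, Ccr7, which guides lymphocytes to lymph nodes, was past the yardstick. It read 1675 on the array labelled antisense and 475 on the untreated array, at least 2.81-fold higher. This bound of 1.491 on the log2 scale lay just past the yardstick of 1.484. None of the 4 measured chemokine genes was past it.

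Immediate-early genes did not move as a group. Of 19 measured, 2 lay past the yardstick on the higher side and 2 on the lower side, with a median of -0.21 that turned to 0.04 above the median of all genes without suffixed probe sets. Egr1, a zinc finger factor induced by growth signals, read 4036 against 1397, or 2.89-fold, and 2087 on the scrambled array. Ier3, a stress-induced survival gene, read 2831 against 999. Junb read 1235 against 3131 in a reduced probe set and 1844 against 1754 in another, and the scrambled array read 1005 in the first. Id3, an inhibitor of E proteins, read 7345 against 10272, a difference of -0.48. Fos and Jun lay below the floor on both arrays.

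Among kinases and phosphatases of the MAP kinase cascade, 2 of 23 measured genes were past the yardstick, both on the higher side. Map2k3, a kinase upstream of p38, read 4890 against 1825 in a probe set shared by more than 1 transcript and 2970 against 3244 in another. Mapkapk2, a kinase that p38 activates, read 8030 against 4867, a difference of 0.72. On the scrambled array Map2k3 read 4560 and Mapkapk2 read 5622, so the first was as high there as on the array labelled antisense. In the list of protein kinase C, calcium and NFAT genes, 4 of 13 were past the yardstick on the higher side and 1 on the lower side. Nfatc1, a calcium-regulated factor of lymphocyte activation, read 3124 against 1151, and Prkca read 2295 against 796. Prkcb, the main protein kinase C of B cell receptor signalling, was bright, at 39041 against 29634, a difference of 0.40, with 2781 against 2651 in a dim probe set. The FK506-binding protein gene Fkbp1a read 1858 against 380, at least 3.12-fold higher. Nfatc3 was on the lower side, at 4926 against 7468 in a family probe set, and read 2527 against 2270 in another.

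Genes of B cell identity went both ways, with Ms4a1 and Cd79a lower and Irf4 higher. Of 6 measured B cell markers, 3 were past the yardstick on the lower side and none on the higher side. Ms4a1, which encodes CD20, read 31106 against 44237 in 1 probe set and 13032 against 18147 in another, differences of -0.51 and -0.48. Cd79a, a signalling chain of the B cell receptor, read 21473 against 27790, a difference of -0.37. In the list of B cell receptor signalling, 2 of 19 measured genes were past the yardstick on the lower side, Cd79a and the inhibitory Fc receptor gene Fcgr2b, the latter at 1172 against 2298 with 1050 on the scrambled array. Syk, Blnk and Btk differed by 0.01, 0.22 and -0.20, all within it. The summed intensity of the 6 B cell markers was 127691 on the array labelled antisense and 165488 on the untreated array. In RNA of a whole culture, fewer cells with a transcript and less of it in each cell cannot be told apart.

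The transcription factors of B cells went to both sides. Irf4, which drives plasma cell differentiation and germinal centre exit, read 24443 against 15737, a difference of 0.64 against a yardstick of 0.33. Spib, an ETS factor of B cells, read 8629 against 15336 in 1 probe set and 3186 against 4613 in another, differences of -0.83 and -0.53, the second within its yardstick. Ikzf1, which encodes Ikaros, read 1580 against 3400, a difference of -1.11. Pax5 read 7623 against 8239, a difference of -0.11 within the yardstick of 0.40. Prdm1, the plasma cell factor Blimp-1, read 1298 on the array labelled antisense and 587 on the untreated array, the latter just below the floor, and this bound of 1.12 lay within its yardstick. Of the other plasma cell markers, Xbp1 read 6045 against 6316, Jchain 1592 against 1784, and Sdc1 lay below the floor on both arrays. Of 23 such factors measured, 1 was past the yardstick on the higher side and 3 on the lower side, and the median was 0.05.

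Surface molecules of B cells had 2 of 20 measured genes past the yardstick on each side. Higher were Cd83, an activation marker, at 7250 against 4402 with a smaller difference of 0.17 in its dimmer probe set, and the SLAM family receptor gene Ly9 at 4221 against 2238. Lower were Ms4a1 and Cd24a, the latter at 88312 against 113868. The probe sets of Ighm, the mu heavy chain gene, disagreed. A family probe set read 5746 against 1023, the largest difference of any named gene above the floor on both arrays, at 2.49, and another read 25443 against 13300. The brightest pair read 145518 against 155216 and 75374 against 80245, both differing by -0.09. Of 7 measured immunoglobulin genes, Ighg3 alone was past the yardstick, at 7370 against 5209, and its other measured probe sets read 7969 against 4352 and 981 against 1074.

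Genes of antigen presentation on MHC class II were on the lower side. Of 12 measured, 9 of which lay above the floor on both arrays, 4 were past the yardstick and lower and none was higher. A difference below 0 was found in 11, beside 48.6% of all genes, and the median was -0.38. The median remained between 0.37 and 0.42 below that of all genes under 5 other scalings and was 0.22 below it when only probe sets above the floor on both arrays were used. Cd74, the invariant chain that guards class II molecules, read 63917 against 81644, a difference of -0.35. H2-Aa, a class II chain, read 16961 against 23224, and H2-Oa, which modulates peptide loading, read 1560 against 2913. H2-DMa, a chain of the peptide loading catalyst, read 353 against 1750, at least 2.94-fold lower. H2-Ab1 and H2-Eb1 read 3397 against 4639 and 6779 against 7831, both within the yardstick. In the MHC class I list, 2 of 18 genes were past the yardstick on the lower side and 1 on the higher side. H2-Q5, read by a family probe set, had the lowest difference of the named genes above the floor on both arrays, at 685 against 3410 or -2.31, and Tapbp, the tapasin gene, read 8917 against 13230. The bright class I genes H2-K1 and H2-D1 differed by -0.22 and -0.15 in their brightest probe sets, within the yardstick of 0.32, and B2m by -0.13. The dimmest H2-D1 probe set was past its yardstick, at 6611 against 8876.

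Mitotic and replication genes were more often lower than higher, by small amounts. Of 34 measured G2/M genes, 27 had a difference below 0, beside 48.6% of all genes, with a median of -0.21, and 3 were past the yardstick on the lower side and 1 on the higher side. Plk1, the kinase of mitotic entry, read 5698 against 9815 in 1 probe set and 3958 against 7259 in another, differences of -0.79 and -0.88. Cdc20, which turns on the ubiquitin ligase of anaphase, read 8215 against 13382. Cdk1 read 17016 against 21608, a difference of -0.34 against a yardstick of 0.33. The CDK-binding subunit gene Cks1b was on the other side, at 19303 against 14852. Top2a read 3379 against 3172, Mki67 5352 against 6571 and Ccna2 3423 against 3674, all within the yardstick. Cdc25c, the phosphatase that activates Cdk1, read 1035 against 2049, within the yardstick of 1.05 at that level.

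Of 36 measured DNA replication genes, 6 were past the yardstick on the lower side and none on the higher side, with a median of -0.10. The helicase subunit genes Mcm5, Mcm7 and Mcm2 were all lower. Mcm5 read 32868 against 46247, Mcm7 14178 against 19055 and Mcm2 2932 against 4680. Chaf1a, a histone chaperone subunit at the fork, read 881 against 2337, and Pola2, a subunit of the priming polymerase, read 1156 against 2484. Rpa1, which binds single-stranded DNA, read 7122 against 9939. On the scrambled array Pola2 read 1154 and Rpa1 6167, so these were as low there, while Mcm5 read 49891 and Chaf1a 2128. Pcna and Rrm1 read 31099 against 28161 and 14754 against 14839. Tert, the telomerase subunit gene, read 1449 against 799 and 2299 on the scrambled array, within the yardstick.

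The counts of chromatin and repair genes past the yardstick are read beside 4.75% of all genes on the higher side and 3.41% on the lower side. Of 40 measured histone and chromatin genes, 3 lay past it on the lower side and none on the higher side, although the median was 0.04. H2ax, a histone variant of DNA repair, read 3346 against 6450, Hmgb2, a chromatin protein abundant in dividing cells, read 20816 against 35595, and Ezh2, a histone methyltransferase gene, read 8899 against 13598. Of 35 repair and checkpoint genes, H2ax, which is in both lists, was past it on the lower side and the checkpoint clamp gene Rad1 on the higher side, at 2868 against 1417.

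Genes of cholesterol synthesis and uptake had the lowest median of the 40 lists, -0.39, and 14 of 15 measured had a difference below 0. The list's median lay between 0.33 and 0.43 below that of all genes under 5 other scalings. Past the yardstick were 3 on the lower side and 1 on the higher side. Fdps, the farnesyl diphosphate synthase gene, read 13909 against 21340, and Fdft1, the squalene synthase gene, read 1163 against 2576, or 2.21-fold lower. Srebf1, which encodes the SREBP-1 activator of lipogenic genes, read 3122 against 5253. The sterol reductase gene Tm7sf2 was higher, at 5933 against 3274. Hmgcs1, Sqle and Idi1, further enzymes of the pathway, differed by -0.47, -0.22 and -0.20 within the yardstick. In the list of fatty acid synthesis and oxidation, 12 of 15 measured genes had a difference below 0, with a median of -0.27, and the desaturase gene Scd2 was past the yardstick, at 27345 against 37670. The related desaturase gene Scd1 read 11619 against 14474 in its brightest probe set, within the yardstick, 6655 against 10299 in another, past it, and 844 against 858 in a dim one.

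Some enzymes of sugar metabolism were lower. Of 22 measured genes of glycolysis and the pentose phosphate pathway, 4 were past the yardstick on the lower side and none on the higher side, with a median of -0.06. Tpi1, triosephosphate isomerase, read 32108 against 57073, a difference of -0.83 against a yardstick of 0.32. Pfkl, a phosphofructokinase, read 7326 against 10781, Pgk1 read 23190 against 30264 and Ldha, lactate dehydrogenase, read 57233 against 72052. Pkm read 52827 against 56043, within the yardstick. Of 46 measured genes of the TCA cycle and the respiratory chain, 3 were past it on the higher side, Atp5e, Cox6c and Uqcrq, by 0.32 to 0.44, and the fumarase gene Fh1 was past it on the lower side, at 9503 against 14480.

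Chaperone genes divided by gene rather than by list. Of 29 measured heat shock proteins and chaperonins, 2 were past the yardstick on the higher side and 3 on the lower side. Hspe1, the mitochondrial co-chaperonin, read 30581 against 18993, and Hsph1 read 11323 against 8635. Hspa8, the constitutive cytosolic Hsp70, read 29367 against 43111. Hspa4 read 4296 against 8541 in its brightest probe set by the mean of both arrays, 4243 against 6906 in another and 4939 against 4707 in one more. Dnajc3, an inhibitor of eIF2 alpha kinases, read 1821 against 3191 in its brightest probe set, 1489 against 2306 in another and 954 against 891 in a dim one. In the list of ER stress and folding, Hspa5, the chaperone BiP, read 16644 against 26550, Pdia4 read 2503 against 4438 and Pdia6 read 6044 against 8370. These 3 were on the lower side of 28 measured genes and Ddit3 alone was past the yardstick on the higher side.

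Metallothionein and antioxidant genes had 3 of 29 measured members past the yardstick on the higher side and 1 on the lower side, with a median of 0.18. Higher were the glutathione transferase genes Gstt1, at 18060 against 11245, Gstm1, at 1831 against 750, and Gstm5, at 2350 against 795 in a reduced probe set and 1424 against 1568 in another. On the scrambled array Gstm1 read 4788 and Gstt1 15592. Mt2, a metallothionein that binds zinc and copper, was lower, at 1912 against 4661, or 2.44-fold, with 4552 on the scrambled array.

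Matrix and protease genes were on the lower side, with 4 of 15 measured past the yardstick there and none on the higher side. Serpinf1, a secreted serpin, read 754 against 2820. Plat, whose protease turns plasminogen into plasmin, read 1306 against 3414, and Timp1, an inhibitor of metalloproteinases, read 700.0 against 1826. The lysosomal protease gene Ctsh read 4844 against 8042. Of 25 measured integrins and adhesion adaptors, 3 were past the yardstick on the lower side, Lasp1, Tspan32 and the actin-severing cofilin gene Cfl1, and Actn4, an actin crosslinker, on the higher side. Cfl1 was the brightest of these, at 41678 against 52409. The small GTPase gene Arf5 read 1901 against 4572, and Rab7 of late endosomes read 5625 against 3733 in 1 probe set and 2596 against 3356 in another, on the opposite side.

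The interferon response genes had 1 of 19 measured past the yardstick on each side. Isg20, an antiviral exonuclease gene, read 3510 against 7684, and Ifna5, read by a family probe set, read 2366 against 966. Irf1 and Irf7 differed by -0.07 and -0.13 within the yardstick, and Isg15 and Ifit1 lay below the floor on both arrays. Protein synthesis and turnover genes lay close to the common level. Of 40 measured translation factors and ribosome biogenesis genes, none was past the yardstick, and of 31 proteasome subunits 1 was on each side, Psmd8 at 0.36 and Psmb6 at -0.56, although 25 of the 31 had a difference below 0, with a median of -0.16. Of 23 measured ribosomal proteins, Rps27 was past it, at 1307 against 2561, and the median was 0.03. Of 22 solute carriers, 2 were past it and lower. Slc25a4, a mitochondrial ADP/ATP carrier, read 8923 against 12379, and Slc25a3, the phosphate carrier, read 204 against 2197, at least 3.69-fold lower. The scrambled array read 562 for Slc25a3, also below the floor. None of the 27 measured genes of the lysosomal list was past the yardstick. Ctsh and Laptm5, lysosomal genes outside that list, were past it, the first lower and the second higher.

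**Figure D3:**
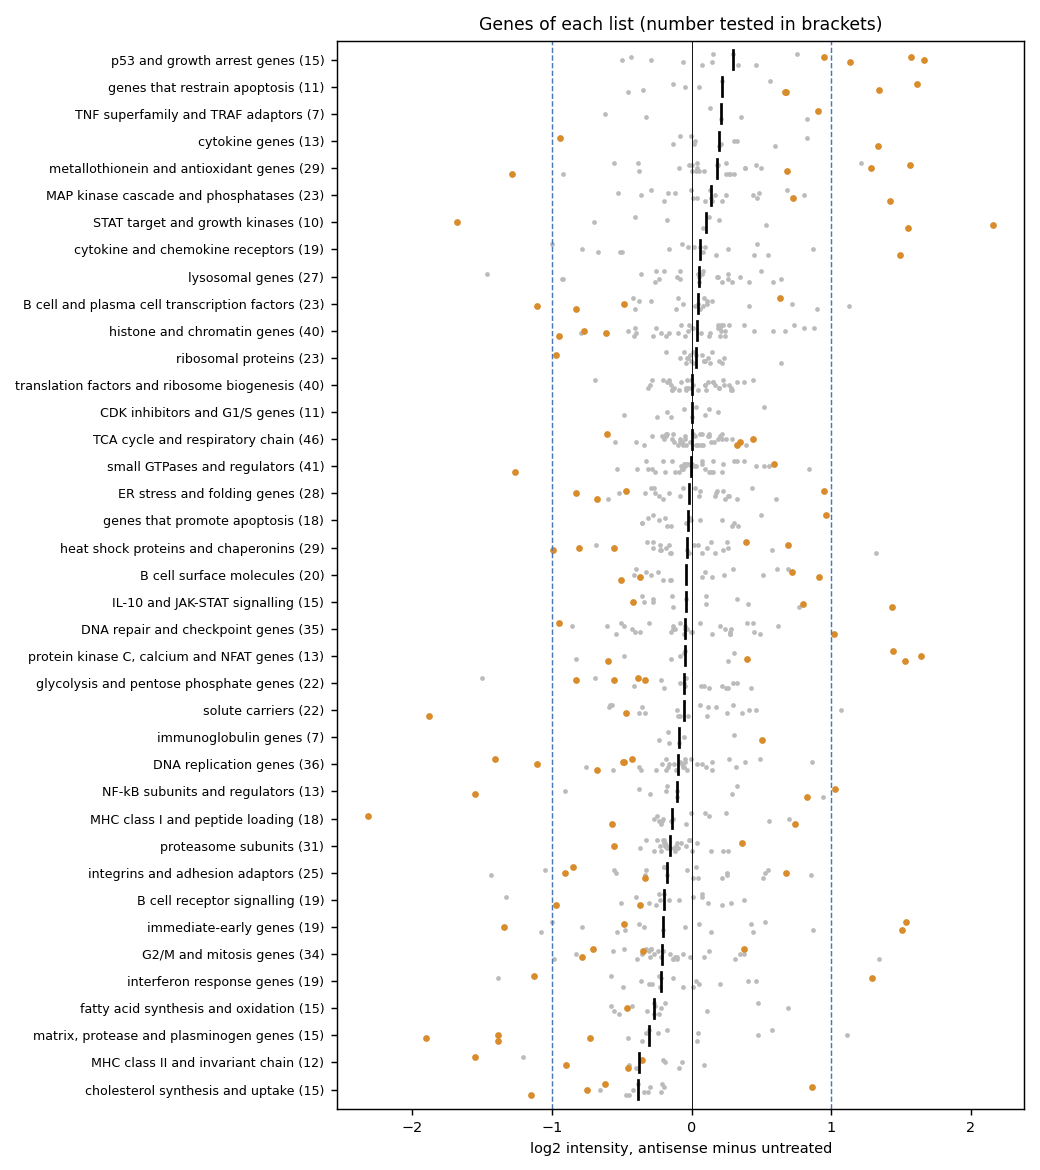
Log2 difference (x) of each measured gene in each gene list with 5 or more measured (rows, with the number measured), ordered by the list median (black bar), with 2-fold dashed and genes past the yardstick in orange. The medians run from -0.39 for cholesterol synthesis to 0.30 for p53 and growth arrest genes, and every list of 10 or more spans both sides of 0.

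Beyond the lists, genes were named by the size of their difference. Among the 30 highest genes above the floor on both arrays, Eif2ak1, a haem-regulated kinase of translation, read 2765 against 687 and 2283 on the scrambled array, and its other measured probe set read 585 against 661. Uchl1, a deubiquitinase gene, read 2045 against 623, and Mapkapk5, a kinase downstream of p38, read 2656 against 903. Vamp2, which serves vesicle fusion, read 1984 against 678, and Bgn, the proteoglycan biglycan, read 3833 against 1406 in 1 probe set and 1133 against 656 in another. Psd, an exchange factor of Arf6, read 2300 against 744 and 2554 on the scrambled array. The others of the 30 not yet named included Gm10229, Aamdc, Peg3, 1700073E17Rik, Wfdc21, Sprr2e, D2hgdh, 4933434E20Rik, Dda1, Ckmt2 and Zfp787. In this group Dda1 read 3014 against 1103 in a reduced probe set but 3759 against 3310, 3034 against 2870 and 752 against 1331 in the others, and 4933434E20Rik read 11965 against 4335 in 1 probe set and 6476 against 5159 in another.

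Among the 30 lowest, Hcn2, a pacemaker channel gene, read 982 against 3884 in a reduced probe set, with 1569 on the scrambled array. Snai2, the transcription factor Slug, read 658 against 2583 and 1005 on the scrambled array. Hsd17b4, a peroxisomal enzyme of fatty acid oxidation, read 695 against 2463. Actc1, the cardiac actin gene read by a family probe set, was the brightest of the 30, at 5405 against 12913. Cd36, a scavenger receptor gene, read 1492 against 3398, Pld4 read 1586 against 3852, and Marcks, a membrane protein that protein kinase C phosphorylates, read 1313 against 3092. Strn4, Cel, Nt5dc2, Necap2, 2610001J05Rik, Wbp2, Scarb2, Banp, Sfmbt2, Dmap1 and Kpna1 were also among them, with differences from -1.67 to -1.13. Of these, Banp read 831 on the array labelled antisense and 618 on the scrambled array, so it was low on both. Arcn1 read 913 against 2793 in a family probe set and 3050 against 3369 in another, Mknk2 read 1282 against 2911 and 9256 against 9970, and Igkv10-96 read 709 against 1901 and 1625 against 1316. The second probe set of these last 3 genes therefore did not share the size of the difference.

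**Figure D4:**
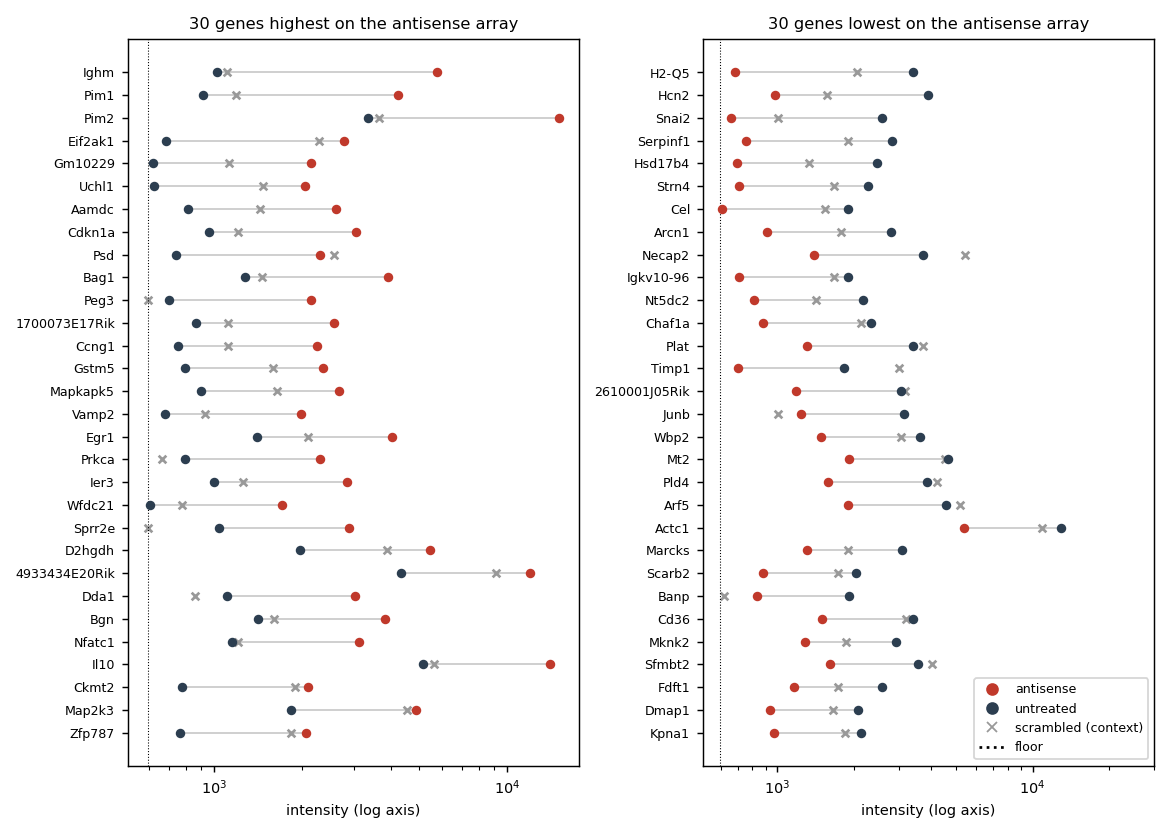
Intensity (log axis) of the 30 highest (left) and 30 lowest (right) genes above the floor on both arrays, in order of difference, on the array labelled antisense (red), the untreated array (dark blue) and the scrambled array (grey cross, context). Values below the floor of 595.9, here only on the scrambled array, are drawn at it. Pim2, Il10 and 4933434E20Rik are the brightest genes on the left and Actc1 is the brightest on the right. Most others on the right read under 2000 on the array labelled antisense.

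Some genes lay above the floor on 1 array only, so that their fold is a lower bound. After Cdkn1a, the highest such bound was that of Dvl2, an adaptor of Wnt signalling, at 3514 against -32, at least 5.90-fold, and its other probe set lay below the floor on both arrays. Fem1b, a substrate receptor of a ubiquitin ligase, read 2513 against 253 and 1292 on the scrambled array. Dnm2, the dynamin of endocytosis, read 1982 against -162, and Mast2, Wbp1, Cnn1, Krt12, Frat2, Pex14, Pcp2 and Col9a2 made up the rest of the 12, with bounds from 3.16-fold to 4.40-fold. The brighter probe sets of Pex14 read 4009 against 2487 and 6616 against 6994, on opposite sides. Pcp2 read 7652 on the scrambled array. On the lower side, Ncf1, the p47 subunit of the phagocyte oxidase, read 454 against 2433, at least 4.08-fold lower. Anp32e, a histone chaperone gene, read 425 against 2184 in 1 probe set and 6492 against 8974 in a brighter one. Hps4, Arf3, Chmp6, Plcb1, Tyms-ps and Smpd1 were also among the 12, and Tyms-ps read 7774 on the scrambled array. Chmp6 was below the floor on the scrambled array too, at -916. The bound of Smpd1, -1.46, lay just within its yardstick. Arf3 read -990 against 1875 in the probe set that gave its bound, but 1841 against 1418 in the one above the floor on both arrays.

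The brightest genes carry the smallest error, so those with a mean level of 8000 or more were also listed, after their values had been seen. Of 624 such probe sets with 1 gene, 68 were past the yardstick on the higher side and 55 on the lower side, but only 4 and 1 were 2-fold apart. Besides Pim1, Il10 and Nfkbia, the 2-fold higher one was a family probe set assigned to Notch4, at 30456 against 14805. Ddx17, an RNA helicase gene, read 12082 against 6100, and Snhg6, a host gene of small nucleolar RNA, read 21675 against 11791. Nop10, a subunit of snoRNA particles, read 31907 against 19422, Pabpc4, a poly(A)-binding protein gene, read 12769 against 7370, and Itch, a ubiquitin ligase gene, read 26365 against 16138. Laptm5, a lysosomal protein of lymphocytes, read 18111 against 12070. On the lower side, the replication-linked gene Pclaf read 20098 against 31902, with smaller differences of -0.24 and -0.56 in its dimmer probe sets, and Tsc22d1 read 12543 against 20432. Napsa, an aspartic protease gene expressed in B cells, read 35730 against 51608, and Hnrnpa2b1, an RNA-binding protein gene, read 27405 against 37884. None of these bright genes was near the floor on either array.

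Probe sets of the same gene gave a measure of error within the comparison. Among 551 pairs from 399 genes with both probe sets above the floor on both arrays, the standard deviation of the difference between the 2 log2 differences, divided by the square root of 2, was 0.43. It was 0.48 when the dimmer probe set was under 2000 and 0.20 in the 38 pairs where both were at 8000 or more. With each pair entered in both orders, the log2 differences of the probe sets correlated with r = 0.16 over all 551 and r = 0.61 over those 38 pairs. Pairs share their 2 arrays and genes with several pairs recur, so these are descriptions. Of the 37 pairs in which at least 1 probe set was 2-fold apart, 21 went the same way and 1 pair was 2-fold apart in both, that of Pim1. Probe sets of a gene can bind different transcripts, and some can be built on faulty sequence.

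**Figure D5:**
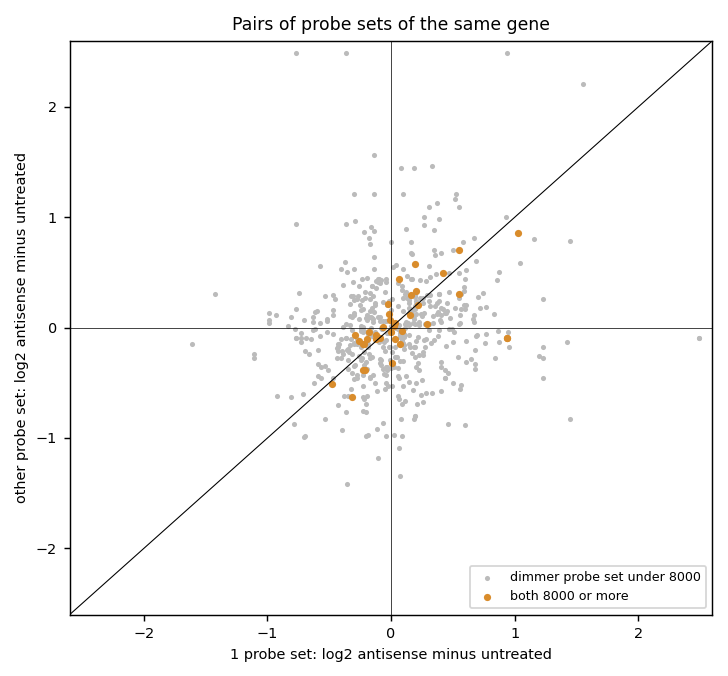
Log2 difference of 1 probe set (x) against that of another probe set of the same gene (y), for 551 pairs above the floor on both arrays, with the line of equal values. The 38 pairs with both probe sets at 8000 or more (orange) lie closer to the line than the dimmer pairs (grey), apart from 2 pairs of Ighm probe sets, which overlap in the plot.

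Of the 399 genes with several such probe sets, 73 had at least 1 past the yardstick, 44 of these had all their probe sets on 1 side, and 11 of these 44 had at least 2 past the yardstick. Hspa4, Ighg3 and Ighm also had 2 past it on 1 side, but with another probe set on the opposite side. Of the 326 genes with no probe set past it, 171 had all on 1 side. The 11 were Pim1, Nfkbia, Slfn2, Clic4, Fmc1, Ubl5, Erdr1, Cnbp and Cdc34 on the higher side and Plk1 and Ms4a1 on the lower side. Slfn2, a regulator of lymphocyte quiescence, read 7033 against 3156 and 3180 against 1818. Clic4, a chloride channel protein gene linked to stress responses, read 10541 against 6473, 9977 against 6802 and 4970 against 3518. Fmc1 read 26494 against 18497 and 8523 against 3801, and Cdc34, a ubiquitin-conjugating enzyme gene, read 9818 against 7283 and 5220 against 2878. On the scrambled array the values of Slfn2 were 3485 and 2166, and those of Clic4 were 6958, 7682 and 3919, nearer the untreated array in each.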

How the data were processed

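Per the labels and values, the deposited table holds 1 linear intensity per probe set of an Affymetrix mouse array, negatives included. Its trimmed mean, without the 2% at each end, was 1500 on every array. Which software made or scaled it, the sources used here do not say. Here each array was rescaled to a common 2% trimmed mean over the 12588 non-control probe sets, by factors between 0.9993 and 1.0004, with Python 3.11.15, pandas 2.3.3 and numpy 2.4.6. Of these, 10276 had 1 gene symbol in the platform annotation, 363 several and 1949 none. Gene identifiers of 10257 matched RefSeq, whose symbols are used. A gene was its measured probe set of highest mean. Named genes were the 30 highest and 30 lowest past the yardstick, 12 each way against the floor, up to 6 per list and a fixed set of genes, 1 of which is not reported here. Members, lists and rules were chosen with earlier results of these data known. The counting was checked on simulated data. The number of arrays limits the precision. Suffixed probe sets (_s, _f, _r, _i, _g) can bind several transcripts. No genome was given.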

Additional observations from a re-analysis of the deposited data

Results flagged for a closer look

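Control probe sets of mouse sequence, which enter no comparison above, were read as well, and 3 were higher on the array labelled antisense than the yardstick allows at their level. The control probe set for Il10, AFFX-MurIL10_at, was 1.87-fold higher, at 6346 against 3391, beside 2.70-fold for the probe set in the report. AFFX-MUR_b2_at was 1.89-fold higher, at 27491 against 14534, and AFFX-MURINE_b1_at was 1.71-fold higher, at 32829 against 19158. AFFX-MURINE_B2_at went the other way, at 129642 against 159669. The sources used here do not say which sequences these other 3 match.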

How the results depend on the processing

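Counts of 2-fold probe sets depended on the floor and the scaling. The 162 higher and 135 lower became 390 and 379 with the floor at 1 robust standard deviation, 95 and 62 with it at 3, and 270 and 246 with an inverse hyperbolic sine in place of floor and log2. With scaling to the spike-in controls they were 1116 and 54, which moved the higher share from 54.5% to 95.4%, and with probe sets above the floor on both arrays they were 100 and 72. At 1.5-fold they were 591 and 489 and at 3-fold 31 and 22, by construction. Each other setting stayed within 1.5 times: values as deposited, the median, quantile or level-dependent scaling, no filter, no suffixed probe sets, none above 50000, and the spread of same-gene probe sets as an added condition. Neither the missing filter nor this added condition could move the counts much. Probe sets at or below the floor on both arrays have a difference of 0. The same-gene spread was 0.92 at an intensity of 1000 and 0.75 at 8000, so nearly every 2-fold difference passes it. Of the named probe sets, 96 were 2-fold apart and past the yardstick. All 96 kept their direction wherever they could be measured in the 12 settings of floor, scaling, filter and probe sets. They were picked for a large difference on these same arrays, so the kept direction was nearly fixed in advance and is no check on them. With the spike-in controls 70 of them remained 2-fold apart. With those controls 26 of 40 list medians turned sign, and 5 changed side of the median of all genes, which was itself 0.60. Without a filter 29 of 40 turned sign or became 0. No paired analysis was possible because each group is 1 array. Differences under the yardstick cannot be told from those between the scrambled and untreated arrays, at 1 array each.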

Other observations

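Among the 162 higher probe sets, 24 had no gene symbol or several, and among the 135 lower ones 22 did. Of these, 13 higher and 11 lower were past the yardstick, so they are known only by their identifiers. The probe set 94091_f_at had the lowest difference of all measured probe sets, at 1516 on the array labelled antisense, 11434 on the untreated array and 12538 on the scrambled array. The probe set 104151_at read 4605, 834 and 1326 on the same arrays, and 96215_f_at read 8781, 2409 and 1555. The probe set 92779_f_at, of bright level, read 44095, 18595 and 17940.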
